A study of Mus musculus with 6 samples.

Results

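Creatine, arginine and urea handling genes were examined in 3 mouse endothelial cell lines. The 8 genes were Gatm, Gamt, Slc6a8, Ckb, Slc14a1, Arg1, Arg2 and Odc1, all of which were measured among 19936 genes on the arrays. They were chosen by symbol with earlier results of these arrays known: the large differences of Gatm and Slc14a1 between lines had already been seen, so both are described here without a test. Where a gene had more than 1 probe set, the one with the highest mean log2 signal over the 6 arrays was taken, which applied to Odc1 alone. The lines came from embryonic stem cells and are labelled VE+N (expressing VE-cadherin and N-cadherin together), VE (expressing VE-cadherin) and N (expressing N-cadherin), with 2 arrays each. All were seeded at 50000 cells per square centimetre, grown for 72 h and starved for 18 to 20 h with 1% albumin, and each array used 150 ng of RNA. How the cadherins were introduced or removed is not given in the sources used here. There is 1 line for each cadherin state, so that an effect of the cadherin and any other difference between the lines cannot be told apart.

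Creatine stores high-energy phosphate. The enzyme encoded by Gatm moves the amidino group of arginine onto glycine, which leaves ornithine, and the methyltransferase encoded by Gamt completes creatine. Slc6a8 carries creatine into cells, and the brain-type creatine kinase Ckb charges it with phosphate. Arginases, in the cytosol (Arg1) and in mitochondria (Arg2), split arginine into ornithine and urea. Urea crosses membranes through the transporter Slc14a1, which is known from red cells and from the endothelium of the descending vasa recta of the kidney. Ornithine decarboxylase (Odc1) turns ornithine into putrescine, the first polyamine, and endothelial nitric oxide synthase draws on the same arginine.

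Of the 8 genes, 4 differed by more than 1 log2 unit between lines. The large differences of Gatm and Slc14a1 among them were known beforehand. The share of all genes with such a span was not computed, so the count is a description only. The span between the highest and the lowest line mean was 6.24 log2 units for Gatm, 5.48 for Slc14a1, 2.90 for Ckb and 1.28 for Odc1, and it lay between 0.0966 and 0.279 for the other 4. Gatm and Ckb were high in the VE+N-labelled and VE-labelled lines, Slc14a1 was highest in the VE+N-labelled line, and Odc1 was lowest there. In bulk RNA such as this, fewer cells of a type and less RNA per cell cannot be told apart. Of the 6 genes tested with limma, VE+N against VE gave 0 higher and 1 lower (also 0 higher at an unadjusted p below 0.05), VE+N against N gave 1 and 1, and VE against N gave 1 and 1. Among all 19936 genes the same test called 10.1% in VE+N against VE (4.29% higher and 5.84% lower), 19.1% in VE+N against N (10.2% higher and 8.91% lower) and 15.4% in VE against N (8.46% higher and 6.99% lower). The median log2 difference of the 6 genes was −0.0657, 0.0011 and 0.0161 in these comparisons, beside 0.0294, −0.0044 and −0.0215 over all genes. The p-values measure the spread between 2 extracts of each line, which the labels call biological replicates but no source used here says came from separate cultures.

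**Figure D1:**
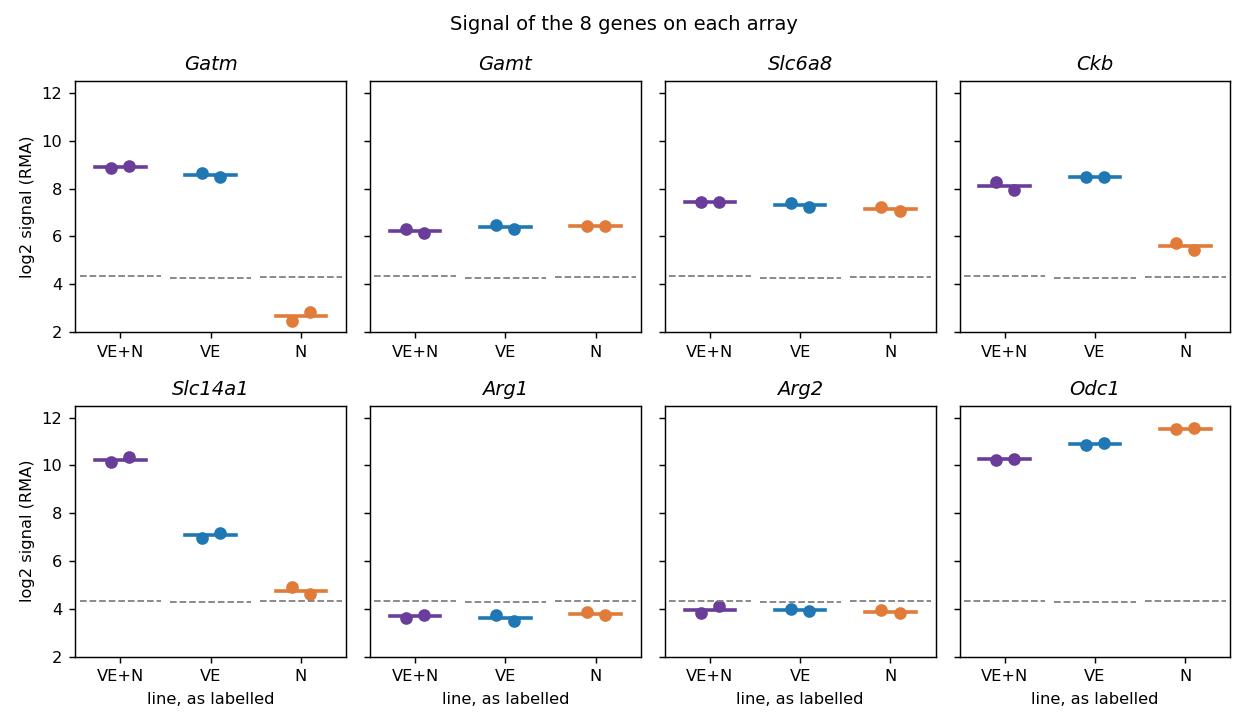
Log2 signal of the 8 genes on each array, in panels by gene, with the lines VE+N, VE and N along the horizontal axis. Points are single arrays, bars the mean of 2 arrays and dashed lines the working background level of that line (about 4.3). Gatm drops below the dashed line only in the N-labelled line, and Arg1 and Arg2 lie below it in all 3 lines.

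The values are log2 signals without a detection call, so a working background level was set on each array at the 95th percentile of 1023 probe sets of olfactory receptor genes, which endothelial cells are not known to use. That level was 4.41 and 4.27 on the VE+N-labelled arrays, 4.27 and 4.28 on the VE-labelled arrays, and 4.32 and 4.31 on the N-labelled arrays. All 12 endothelial markers measured, among them Pecam1, Kdr and Tie1, lay above it on every array. Their mean was 10.7 to 10.8 on the VE+N-labelled arrays, 10.2 to 10.3 on the VE-labelled arrays and 10.2 on both N-labelled arrays. Of the 12, 5 were higher and 0 lower in VE+N against VE (median difference 0.41), 4 higher and 0 lower in VE+N against N (0.12), and 1 higher and 2 lower in VE against N (−0.17). The tight junction gene Cldn5 was higher in all 3 comparisons, by 2.42, 5.44 and 3.02, and the part of this shift in the members' results was not tested. The cadherin labels were checked first. N-cadherin (Cdh2) had a log2 signal of 6.69 and 6.70 on the VE+N-labelled arrays, 5.80 and 5.93 on the VE-labelled arrays and 7.66 and 7.67 on the N-labelled arrays. VE-cadherin (Cdh5) had 7.05 and 7.16 on the VE+N-labelled arrays, 7.05 and 6.83 on the VE-labelled arrays and 7.26 and 7.30 on the N-labelled arrays. Its signal was thus not lower in the N-labelled line, whose label names only N-cadherin. Cdh2 in the VE-labelled line, although the lowest of the 3, also lay above the background level on both arrays, while that label names VE-cadherin alone. These signals are of RNA and not of protein, so they cannot decide whether the labels are right. Every direction given here therefore rests on the labels.

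Gatm, which makes the creatine precursor guanidinoacetate, showed the widest differences. Its log2 signal was 8.86 and 8.95 on the VE+N-labelled arrays, 8.64 and 8.47 on the VE-labelled arrays, and 2.46 and 2.86 on the N-labelled arrays. The N-labelled arrays stood far below the other 4 and under the working background level, and no arrays of different lines overlapped. The difference was 6.24 ± 0.145 (SE) for VE+N minus N, 5.89 ± 0.145 for VE minus N and 0.35 ± 0.145 for VE+N minus VE. Taking the N-labelled line at the background level, Gatm was at least 24-fold higher in the VE+N-labelled line and at least 18.8-fold higher in the VE-labelled line, and at least 13.8-fold and 10.8-fold with the 99th percentile as the level.

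Ckb, the creatine kinase of brain and many other tissues, was also high in both the VE+N-labelled and VE-labelled lines. Its log2 signal was 8.27 and 7.96 on the VE+N-labelled arrays, 8.48 and 8.48 on the VE-labelled arrays, and 5.71 and 5.45 on the N-labelled arrays. The N-labelled arrays were the lowest, and no arrays of different lines overlapped. Ckb rose by 2.54 ± 0.139 (SE) in VE+N against N (limma adjusted p = 1.05e-05) and by 2.90 ± 0.139 in VE against N (limma adjusted p = 9.76e-06). Between the VE+N-labelled and VE-labelled lines the difference was −0.36 ± 0.139 and did not pass (limma adjusted p = 0.162, with an unadjusted 95% interval from −0.68 to −0.043).

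The remaining creatine genes, the methyltransferase Gamt and the creatine importer Slc6a8, passed in no comparison. Gamt had 6.33 and 6.14 on the VE+N-labelled arrays, 6.48 and 6.33 on the VE-labelled arrays, and 6.45 and 6.42 on the N-labelled arrays. Slc6a8 had 7.43 and 7.46 on the VE+N-labelled arrays, 7.40 and 7.22 on the VE-labelled arrays, and 7.25 and 7.09 on the N-labelled arrays. For both genes the VE-labelled arrays overlapped those of the N-labelled line, while the VE+N-labelled arrays lay outside the N-labelled range, lower for Gamt and higher for Slc6a8, and for Slc6a8 also above the VE-labelled ones. The difference in VE+N against N was −0.20 ± 0.112 for Gamt (limma adjusted p = 0.296) and 0.28 ± 0.112 for Slc6a8 (limma adjusted p = 0.136). The 95% intervals over the 3 comparisons ran from −0.45 to 0.23 for Gamt and from −0.12 to 0.54 for Slc6a8, so changes of a size seen for Ckb lay outside them.

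The 250 bases before the annotated start are set side by side for members high in the VE+N-labelled and VE-labelled lines, a member that ran the other way and one that passed in no comparison. RefSeq promoter windows on GRCm38.p6 are shown for 4 of the 8 members. Those of Slc14a1, Slc6a8, Arg1 and Arg2 were not examined, so a member with a wide span, Slc14a1, is missing from this comparison. Gatm (chr2:122611278-122611527, minus strand) and Ckb (chr12:111672339-111672588, minus strand) were of the first kind, Odc1 (chr12:17544623-17544872, plus strand) of the second and Gamt (chr10:80261013-80261262, minus strand) of the third. Capitals mark a match to any motif searched, on either strand.
Gatm: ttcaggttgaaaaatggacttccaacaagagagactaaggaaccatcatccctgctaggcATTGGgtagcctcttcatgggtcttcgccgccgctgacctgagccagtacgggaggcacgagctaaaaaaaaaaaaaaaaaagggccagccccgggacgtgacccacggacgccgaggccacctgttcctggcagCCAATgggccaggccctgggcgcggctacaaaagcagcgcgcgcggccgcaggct
Ckb: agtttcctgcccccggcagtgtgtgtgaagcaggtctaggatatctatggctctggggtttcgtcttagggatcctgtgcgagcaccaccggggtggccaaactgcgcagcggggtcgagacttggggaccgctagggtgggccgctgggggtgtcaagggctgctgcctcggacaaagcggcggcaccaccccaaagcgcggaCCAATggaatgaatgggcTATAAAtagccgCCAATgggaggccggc
Odc1: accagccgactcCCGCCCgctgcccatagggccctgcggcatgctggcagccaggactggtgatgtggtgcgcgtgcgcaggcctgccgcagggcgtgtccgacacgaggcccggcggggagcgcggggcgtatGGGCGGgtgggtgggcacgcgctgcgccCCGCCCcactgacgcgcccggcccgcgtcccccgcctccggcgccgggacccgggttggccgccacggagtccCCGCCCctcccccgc
Gamt: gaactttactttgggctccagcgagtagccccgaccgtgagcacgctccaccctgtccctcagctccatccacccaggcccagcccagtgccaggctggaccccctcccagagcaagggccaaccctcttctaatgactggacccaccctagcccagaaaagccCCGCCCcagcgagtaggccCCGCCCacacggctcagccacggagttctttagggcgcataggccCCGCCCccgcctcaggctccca

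In these windows of 300 bases, which also take in 50 bases after the start, Gatm held 2 matches to CCAAT, with first bases at −190 and −55 from the start. Ckb held 2 matches to CCAAT, at −46 and −16, and 1 match to TATAAA at −28. Odc1 and Gamt held 4 matches each to the GC box GGGCGG, of which 1 of Gamt lay after the start, and neither held CCAAT or TATAAA. Among 32851 mouse promoter windows 37.4% held CCAAT, 13.6% TATAAA and 35.7% GGGCGG. The Myc E-box CACGTG (7.15% of windows), the FoxO motif GTAAACA (3.65%), the AP-1 motif TGAGTCA (5.20%) and the ETS motif CCGGAAG (8.86%) had no match in the 4 windows. No match overlapped one of another motif. The GC content of the 250 bases was 59.2% for Gatm, 62.8% for Ckb, 80.0% for Odc1 and 66.8% for Gamt, against a median of 52.4% over all windows.

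Slc14a1, the urea transporter, was graded over the lines. Its log2 signal was 10.15 and 10.35 on the VE+N-labelled arrays, 6.97 and 7.20 on the VE-labelled arrays, and 4.93 and 4.61 on the N-labelled arrays. The lines did not overlap at any step. The difference was 5.48 ± 0.145 (SE) for VE+N minus N, 3.17 ± 0.145 for VE+N minus VE and 2.31 ± 0.145 for VE minus N. The N-labelled arrays lay just above the 95th percentile level and under the 99th (5.14 and 5.09), against which Slc14a1 was at least 35.1-fold higher in the VE+N-labelled line and at least 3.91-fold higher in the VE-labelled line. Slc14a2, the related kidney urea transporter, was at or under the background level on all 6 arrays, between 3.62 and 3.88, and was called in no comparison.

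Neither arginase rose above background. Arg1 had 3.64 and 3.76 on the VE+N-labelled arrays, 3.75 and 3.51 on the VE-labelled arrays, and 3.85 and 3.73 on the N-labelled arrays. Arg2 had 3.82 and 4.13 on the VE+N-labelled arrays, 3.98 and 3.90 on the VE-labelled arrays, and 3.94 and 3.81 on the N-labelled arrays. All values were under the working background level of their array, and the lines overlapped for both genes. The limma adjusted p-values ran from 0.452 to 0.924, and these arrays set only an upper bound on arginase RNA. RefSeq genes overlap Arg2 (Vti1b and a non-coding RNA), Arg1, Slc6a8 and Slc14a1 (a non-coding RNA each) and Odc1 (a small nucleolar RNA). The positions of the probes are not known here.

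Odc1, the entry enzyme of polyamine synthesis, was the tested gene that passed in all 3 comparisons. Its log2 signal was 10.23 and 10.27 on the VE+N-labelled arrays, 10.86 and 10.94 on the VE-labelled arrays, and 11.52 and 11.55 on the N-labelled arrays. The lines were evenly stepped and did not overlap. Odc1 fell by 1.28 ± 0.0966 (SE) in VE+N against N (limma adjusted p = 6.17e-05), by 0.65 ± 0.0966 in VE+N against VE (limma adjusted p = 0.00432) and by 0.63 ± 0.0966 in VE against N (limma adjusted p = 0.00336). The other Odc1 probe set, annotated with the same transcript, had 9.80 and 10.15 on the VE+N-labelled arrays, 10.61 and 10.76 on the VE-labelled arrays, and 11.41 and 11.49 on the N-labelled arrays. It gave falls of 1.47, 0.70 and 0.77 in the same comparisons, each called (limma adjusted p between 0.00018 and 0.0143). Which copies of the gene in the genome each probe set reads is not known here.

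**Figure D2:**
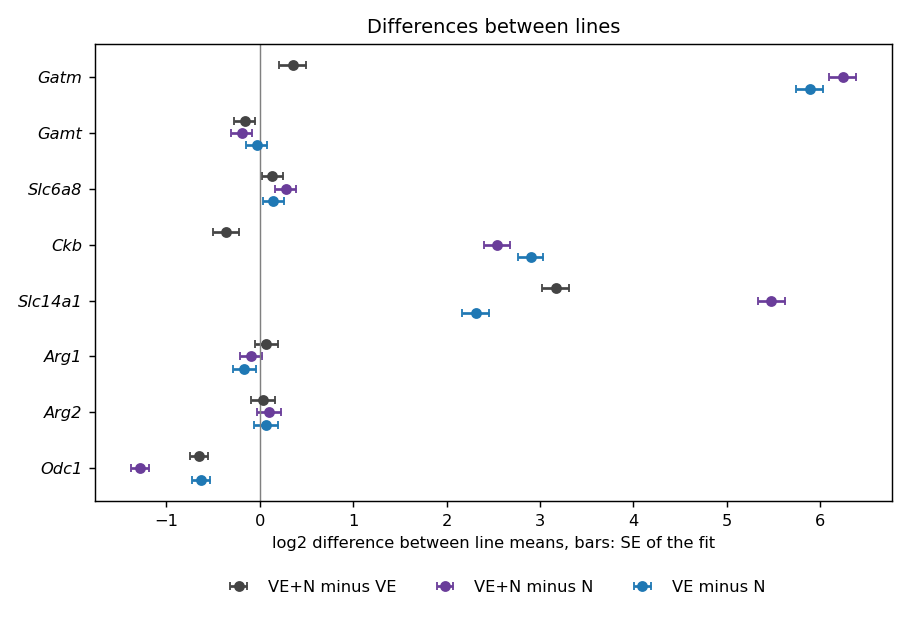
Log2 difference between line means for the 8 genes (horizontal axis), with bars for the SE of the limma fit over 6 arrays and colours for the 3 comparisons. Gatm, Ckb and Slc14a1 lie far to the right in the comparisons with the N-labelled line, Odc1 lies to the left of 0 in all 3, and Gamt, Slc6a8, Arg1 and Arg2 lie within 0.28 of 0.

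Besides the members, 58 of 69 listed genes of the same pathways were measured. In VE+N against VE 5 rose and 8 fell, in VE+N against N 6 rose and 10 fell, and in VE against N 8 rose and 5 fell, with medians of 0.0271, −0.0182 and −0.0196. In the order VE+N against VE, VE+N against N and VE against N, the called shares of all genes were 10.1%, 19.1% and 15.4%, and 13, 16 and 13 of the 58 were called here. Called in at least 1 of the 3 comparisons were 22 of the 58, against 25.6% of all 19936 genes, and the counts by list that follow are of this kind. With median centring the split was 7 higher and 5 lower in VE+N against VE and 7 and 7 in VE against N. These counts moved with single arrays. VE+N against VE gave fewer than 13 calls with any 1 VE+N or VE array left out, which leaves 1 array in that line. The fit on the VE+N and VE arrays alone gave 8. Leaving out an N array only repeats that fit, so it shows no influence of a single N array. VE+N against N gave 9 without N replicate 1 and 10 without N replicate 2, and VE against N gave 8 without N replicate 2 and 6 without VE replicate 2.

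Around creatine, 1 of 4 kinase and export genes was called. This was Slc16a12, a creatine carrier of the monocarboxylate transporter family, with 6.36 and 5.74 on the VE+N-labelled arrays, 4.74 and 4.27 on the VE-labelled arrays, and 4.01 and 3.87 on the N-labelled arrays. It rose by 2.11 in VE+N against N (limma adjusted p = 0.000352), at least 3.33-fold with the N-labelled line at background, and by 1.55 in VE+N against VE (limma adjusted p = 0.00347). The muscle and mitochondrial creatine kinases Ckm, Ckmt1 and Ckmt2, named after their values were seen, passed in no comparison. Ckmt1 and Ckmt2 were at or under background on all 6 arrays. Ckmt1 had an unadjusted limma p below 0.05 in VE+N against VE and in VE+N against N. Of 6 listed genes of methyl supply and use 4 were measured, Mat1a, Mat2b, Gnmt and Nnmt, while Mat2a and Ahcy were not analysed. None of these 4 was called in limma in any comparison, and 0 had an unadjusted p below 0.05. Mat1a was at or under background on all 6 arrays.

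In arginine transport 4 of 8 genes were called in at least 1 comparison, in different directions, beside 25.6% of all genes. Slc7a2, a cationic amino acid transporter, had 4.29 and 4.20 on the VE+N-labelled arrays, 6.43 and 5.99 on the VE-labelled arrays, and 4.16 and 4.31 on the N-labelled arrays. Of the 3 lines only the VE-labelled one lay above background: Slc7a2 was at least 3.65-fold lower in VE+N against VE (limma adjusted p = 0.000188) and at least 3.71-fold higher in VE against N (limma adjusted p = 0.0001). Slc7a7, which exports cationic amino acids together with Slc3a2, had 8.14 and 8.25 on the VE+N-labelled arrays, 7.51 and 7.40 on the VE-labelled arrays, and 9.48 and 9.50 on the N-labelled arrays. It fell by 1.30 in VE+N against N, fell by 2.04 in VE against N and rose by 0.74 in VE+N against VE (limma adjusted p = 7.39e-05, 1.22e-05 and 0.00295). The smaller changes were in Slc7a1, the main arginine importer, which fell by 0.62 in VE+N against VE (limma adjusted p = 0.00709), and Slc7a6, which fell by 0.41 there (limma adjusted p = 0.0354) and rose by 0.45 in VE against N (limma adjusted p = 0.0179).

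Of 7 urea cycle genes measured 2 were called. The mitochondrial aspartate and glutamate carrier Slc25a13, which supplies aspartate to the cycle, had 6.42 and 6.59 on the VE+N-labelled arrays, 6.54 and 6.71 on the VE-labelled arrays, and 3.62 and 3.91 on the N-labelled arrays. It rose by 2.74 in VE+N against N (at least 4.56-fold, limma adjusted p = 5.58e-06) and by 2.86 in VE against N (at least 4.96-fold, limma adjusted p = 8.35e-06), while the difference in VE+N against VE was −0.12 (limma adjusted p = 0.665). Argininosuccinate lyase (Asl) fell by 0.41 in VE+N against N (limma adjusted p = 0.0426). The liver enzymes Cps1 and Otc of the cycle, named after their values were seen, were at or under background on all 6 arrays. Of 5 urea and glycerol channels 0 were called in limma, and 1 had an unadjusted p below 0.05, in VE against N.

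Ornithine has other fates. The aminotransferase Oat, which leads it towards proline and glutamate, had 7.61 and 7.91 on the VE+N-labelled arrays, 8.20 and 8.37 on the VE-labelled arrays, and 7.53 and 7.47 on the N-labelled arrays, with the VE-labelled ones highest. It rose by 0.79 in VE against N (limma adjusted p = 0.0045) and fell by 0.53 in VE+N against VE (limma adjusted p = 0.0384). Aldh18a1, which makes proline precursors from glutamate, rose by 0.34 in VE+N against N and by 0.55 in VE against N (limma adjusted p = 0.0477 and 0.00715). Glutamate dehydrogenase (Glud1) rose by 0.56 in VE+N against N and by 0.58 in VE+N against VE (limma adjusted p = 0.00779 and 0.0114). These were the 3 called of 7 measured in this list.

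Of 15 polyamine genes 7 were called in at least 1 comparison, beside 25.6% of all genes. Spermidine synthase (Srm) had 7.54 and 7.47 on the VE+N-labelled arrays, 8.45 and 8.40 on the VE-labelled arrays, and 8.59 and 8.44 on the N-labelled arrays. It fell by 1.01 in VE+N against N and by 0.92 in VE+N against VE (limma adjusted p = 0.000312 and 0.0011). The acetyltransferase Sat1, which starts polyamine breakdown, had 8.92 and 8.93 on the VE+N-labelled arrays, 9.66 and 9.44 on the VE-labelled arrays, and 10.09 and 10.03 on the N-labelled arrays. Like Odc1, Sat1 fell in every comparison, by 1.14 in VE+N against N, 0.62 in VE+N against VE and 0.51 in VE against N (limma adjusted p = 0.000222, 0.00898 and 0.0155). The antizyme inhibitors, which protect ornithine decarboxylase from degradation, were called in comparisons with the N-labelled line, in which Odc1 fell: Azin1 rose by 0.59 in VE+N against N and by 0.73 in VE against N (limma adjusted p = 0.0129 and 0.00593), and Azin2 by 0.75 in VE against N (limma adjusted p = 0.00518). In VE+N against VE, where Odc1 fell, their differences were also below 0 and did not pass, at −0.44 for Azin2 and −0.14 for Azin1 (limma adjusted p = 0.0699 and 0.593).

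Arginine also feeds nitric oxide synthesis, where 5 of 8 genes were called in at least 1 comparison, beside 25.6% of all genes. Endothelial nitric oxide synthase (Nos3) had 9.75 and 9.67 on the VE+N-labelled arrays, 9.63 and 9.50 on the VE-labelled arrays, and 10.53 and 10.51 on the N-labelled arrays. It fell by 0.81 in VE+N against N and by 0.95 in VE against N (limma adjusted p = 0.000891 and 0.00051), and the inducible form Nos2 fell by 1.10 and 0.67 (limma adjusted p = 0.000596 and 0.00917). Ddah1, which breaks down methylated arginines that inhibit these enzymes, had 5.67 and 5.11 on the VE+N-labelled arrays, 7.40 and 7.50 on the VE-labelled arrays, and 6.76 and 6.87 on the N-labelled arrays. It fell by 2.06 in VE+N against VE and by 1.43 in VE+N against N, and rose by 0.63 in VE against N (limma adjusted p = 0.000289, 0.000776 and 0.0451). Gch1, which makes the cofactor of nitric oxide synthase, rose by 0.52 in VE+N against VE (limma adjusted p = 0.0358).

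**Figure D3:**
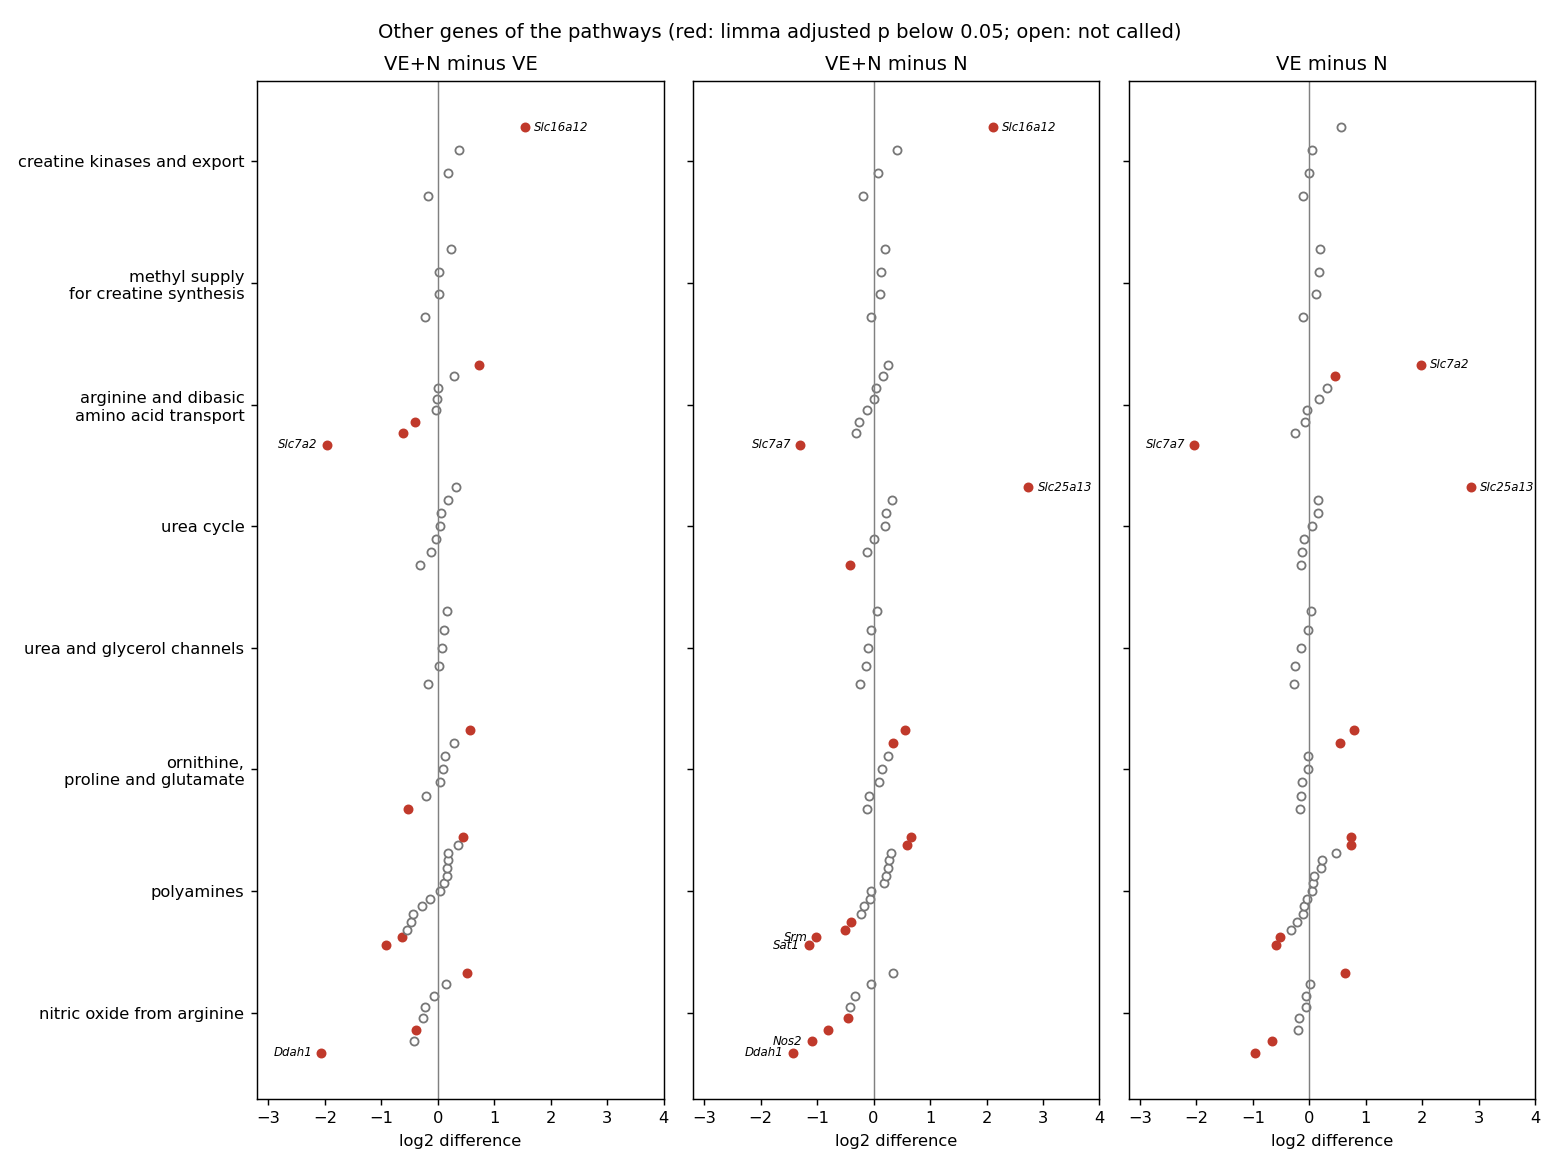
Log2 difference (horizontal axis) of the 58 other pathway genes, grouped by list down the page, with 1 panel for each comparison. Each point is a gene, filled red where limma's adjusted p was below 0.05, and called genes beyond 1 log2 unit are named. Most points lie near 0, with Slc25a13 and Slc16a12 far to the right and Slc7a7, Slc7a2 and Ddah1 far to the left in at least 1 panel.

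Likeness of pattern was measured as the Euclidean distance between profiles over the 6 arrays, each gene centred on its own mean. Nearest to Gatm were Rassf9 (distance 1.25), the apelin receptor Aplnr (1.35) and the fatty acid binding protein Fabp4 (1.70), which share its low N-labelled arrays. Slc14a1 lay nearest to the tight junction gene Cldn5 (0.936), the decoy receptor Il13ra2 (1.16) and Rp1 (1.18), all stepped over the lines in the same order. Ckb lay nearest to the actin cross-linker Flnc (0.506), to Slc25a13 (0.593) and to Crip1 (0.642). Odc1, with its smaller span, lay nearest to Rin2 (0.142), the transcription factor Ets1 (0.147) and Cstf2 (0.152), which are likewise lowest in the VE+N-labelled line. The points share their arrays, and the distances are a description.

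**Figure D4:**
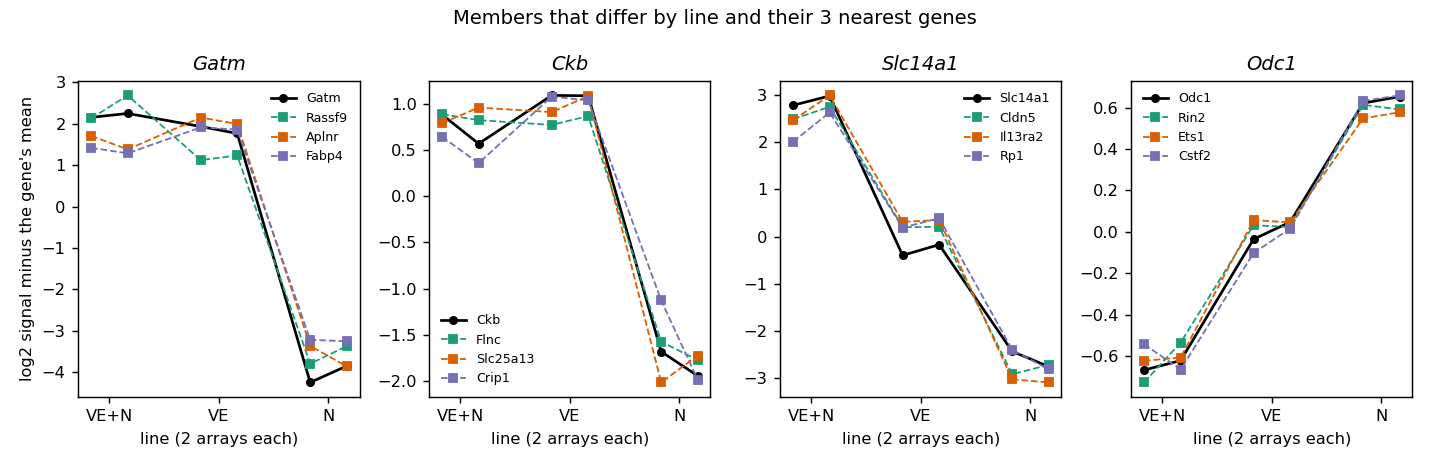
Centred log2 signal (vertical axis) on the 6 arrays, by line along the horizontal axis, for the 4 members with the widest span (black circles) and the 3 genes nearest to each (coloured squares). Vertical scales differ between panels, and the connecting lines only guide the eye. The profiles of each panel share the order of the lines except for small differences between VE+N and VE around Gatm and Ckb.

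Some of the members are also known from other cells, so markers of those cells were read beside them. Of 9 red cell markers 5 were measured, beside Slc14a1. In limma 0 of these were called, 1 had an unadjusted p below 0.05 (in VE against N), and the list mean lay between 4.01 and 4.15 on the VE+N-labelled arrays, 4.07 and 4.17 on the VE-labelled arrays, and 4.20 and 4.23 on the N-labelled arrays. All 4 astrocyte markers were at or under background on every array. Of 8 liver and 4 proximal tubule markers, beside Gatm and Arg1, 0 were called in limma and 0 had an unadjusted p below 0.05. Of the liver markers 5, with albumin (Alb) among them, were at or under background on every array, and 2 lay above it on every array. Of the proximal tubule markers 1 was at or under background on every array, and 2 lay above it on every array. Of 8 macrophage markers 5, including Ptprc and Adgre1, were at or under background on every array. In VE+N against VE 0 were higher and 2 lower, in VE+N against N 0 and 2, and in VE against N 0 and 1. Cd68 fell by 1.31, 2.88 and 1.57 in these comparisons (limma adjusted p = 0.000844, 5.46e-06 and 0.000196). Csf1r, above background on every array, was called in none. Cd14 lay at or under background on both VE+N-labelled arrays. It was at least 1.52-fold lower in VE+N against N and at least 1.29-fold lower in VE+N against VE (limma adjusted p = 0.00159 and 0.0146). The mean of 8 mural and fibroblast markers did move with the lines, at 4.41 to 4.49 on the VE+N-labelled arrays, 5.45 to 5.64 on the VE-labelled arrays and 5.48 to 5.49 on the N-labelled arrays, but its members went different ways. In VE+N against VE 0 were higher and 3 lower, in VE+N against N 0 and 4, and in VE against N 1 and 2. Pdgfrb, at or under background on both VE+N-labelled arrays, was at least 17.7-fold lower in VE+N against VE and at least 25.9-fold lower in VE+N against N, and fell by 0.55 in VE against N (limma adjusted p = 4.27e-06, 4.41e-07 and 0.0334). Acta2 fell by 1.19 in VE+N against VE, fell by 2.27 in VE+N against N and fell by 1.07 in VE against N (limma adjusted p = 0.0025, 4.06e-05 and 0.00279). Pdgfra was highest in the VE-labelled line: it fell by 2.86 in VE+N against VE (limma adjusted p = 6.16e-06) and rose by 2.52 in VE against N (limma adjusted p = 4.21e-06). Cspg4 and Des fell in VE+N against N, by 0.54 and 0.59 (limma adjusted p = 0.0238 and 0.00779), while Rgs5, Myh11 and Tagln passed in no comparison, with differences between −0.082 and 0.26. Of 4 stem cell markers 3 were at or under background on every array and 0 were called in limma, while Pou5f1, itself under background, had an unadjusted p below 0.05 in the comparisons with the VE+N-labelled line. The part of these markers in the results was not tested.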

How the data were processed

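Total RNA of 3 mouse cell lines was hybridized to Affymetrix arrays, 2 for each line. The deposited values are log2 signals per probe set, judged by their range. The submitters' processing notes name RMA and Partek 6.3; RMA removes a modelled background, aligns the arrays by quantiles and reduces probes to 1 value, which shrinks differences of dim probe sets.

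Of 35556 probe sets, 21789 carried 1 gene symbol and were reduced to 19936 genes by the highest mean over 6 arrays, with symbols updated through Entrez identifiers. limma 3.58.1 (R 4.3.3) compared the lines across all genes, on line means over all 6 arrays, with Benjamini-Hochberg adjustment within each comparison and a call at adjusted p below 0.05. Errors are the SE of the fit, with 3 residual and 4.89 prior degrees of freedom. The code was tested on simulated data. Precision is limited by the number of arrays.

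The members and lists were chosen with earlier results of these data known. Pathway genes named are at most 4 called genes a list, taken by size of difference, and named neighbours are the 3 nearest genes (predicted genes, clones, pseudogenes and small RNAs left out) of members spanning at least 1 log2 unit. Of the 69 pathway genes, 11 were not analysed here. Same-numbered arrays were checked for pairing: their deviations from the line means correlated at 0.0689, 0.124 and −0.005, so the numbers were not taken as pairs. The alternatives were fits on 4 arrays, a replicate block, array weights, another prior, other scalings, filters on dim genes, the mean of probe sets, the methods' analysis of variance, treat, other background percentiles and each array left out.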

Additional observations from a re-analysis of the deposited data

How the results depend on the processing

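The 5 calls of Ckb and Odc1 kept their direction and side of the threshold under all 83 alternatives run on their log2 differences, with adjusted p up to 0.0472. The other Odc1 probe set was added after seeing the data. Not all of the 83 are distinct checks. Leaving out an array of the line not compared repeats the fit on the 4 arrays compared. The mean of probe sets cannot change the values of Ckb, which has 1 probe set. Treat and the methods' fold and unadjusted p are not among the 83. Under both, Odc1 lost its calls in VE+N against VE (1.57-fold) and VE against N (1.55-fold), and kept its call in VE+N against N. With the replicate block the members called stayed at 1 in VE+N against VE, 2 in VE+N against N and 2 in VE against N, and the pathway genes called were 14, 15 and 13; it changed no call of a member. Treat against 1.5-fold called 0, 2 and 1 members and 2, 7 and 3 pathway genes in the same order (in VE+N against VE also 0 members at an unadjusted p below 0.05), and the methods' analysis of variance at their fold and unadjusted p gave 0, 2 and 1 members and 3, 7 and 3 pathway genes. With adjusted p it gave 0, 8 and 6 pathway genes (21 in VE+N against VE at an unadjusted p below 0.05, where limma gave 22). Pathway genes called in VE+N against VE were 8 in the fit on 4 arrays and 8 with array weights. Over all genes, called counts of 2020, 3802 and 3079 became 334, 795 and 590 with treat, 311, 1867 and 1276 with the adjusted analysis of variance, and 493, 909 and 751 with their fold and unadjusted p. With each array left out they ran from 966 to 2049, 2243 to 3800 and 1688 to 3356, the pathway counts from 6 to 10, 9 to 15 and 6 to 13, and the members called stayed at 1, 2 and 2. The causes were not tested, and each fit with an array left out rests on fewer arrays. Median centring moved the median of all genes by −0.108 in VE against N, 0.0879 in VE+N against VE and −0.0203 in VE+N against N, and the share of higher calls among all genes from 54.8% to 34.9% in VE against N and from 42.3% to 60.8% in VE+N against VE. Only differences near 0 changed sign: Arg2 in VE against N was −0.044 with median centring. With an array left out, Arg2 ran from −0.0004 to 0.13 in VE against N, −0.0599 to 0.25 in VE+N against N and −0.124 to 0.19 in VE+N against VE, Arg1 from −0.0502 to 0.19 in VE+N against VE and Gamt from −0.11 to 0.0426 in VE against N. Signals near the background level, as for both arginases and for Gatm in the N-labelled line, give only bounds.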
